A study of Mus musculus with 8 samples.

Results

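The collagen genes of cultured mouse muscle stem cells were described across 8 RNA-seq libraries. The members were all genes whose symbol has the form of a collagen chain (Col, a type number, the letter a and a chain number), which gave 39 of the 20976 genes in the table. They comprised 11 fibrillar chains, 6 basement membrane chains (type IV), 7 FACIT chains, 4 transmembrane chains and the single anchoring fibril chain Col7a1. The other members were 3 type VI chains of beaded filaments, 3 short-chain network chains, 2 multiplexins and 2 further chains, Col26a1 and Col28a1.

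Collagens are extracellular proteins in which 3 alpha chains wind into a triple helix. Fibrillar collagens build the cables of connective tissue, type IV collagen forms the sheet-like network of basement membranes, FACIT collagens sit on the surface of fibrils, and type VII collagen anchors the basement membrane to the matrix beneath it. In muscle, each fibre and its stem cells lie against a basement membrane rich in type IV, XV and XVIII collagen. Fibroblastic cells are known as the main source of type I collagen there, and type VI collagen is known as part of the stem cell niche.

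The muscle stem cells were isolated by flow cytometry from mice with loxP sites on both copies of Chd4, which encodes a helicase-like ATPase of the nucleosome remodeller NuRD. They were grown for a short time in medium with 20% fetal calf serum and basic fibroblast growth factor at 5 ng per ml. The Cre group received adenovirus carrying Cre recombinase, which deletes exons 12 to 21, and the GFP group received adenovirus carrying GFP. Each group had 4 libraries, numbered 1 to 4, from 4 mice per condition. All 8 libraries thus carried the loxP alleles and had seen adenovirus, and none combined Cre with an intact Chd4. Strain, age and sex were not stated, nor whether libraries of equal number came from 1 mouse, so p-values without pairing treat the 8 libraries as separate samples.

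The values, here called scaled reads, are counts of reads made comparable between libraries by scaling and then rounded. The scaled totals lay between 27897860 and 28876348, and the number of reads behind them, judged by the gaps among small values, between 23.3 and 38.0 M reads. Chd4 was at 3686 to 5480 scaled reads in Cre and at 15904 to 20121 in GFP, which matches the labels (log2 change -1.88, limma, Benjamini-Hochberg adjusted p = 0.00328). Muscle stem cell and myoblast markers were high, with Pax7 at 4381 to 6704 and Myod1 at 30708 to 47778, while Calcr, a receptor of quiescent stem cells, reached at most 9. Markers of other cell types were mixed: Cdh5, Flt1 and Cldn5 of endothelium, Myh11 of smooth muscle and Clec3b of fibroblasts stayed under 10 in each of the 8 libraries. In the same lists, the endothelial genes Pecam1 and Tek reached 130 and 313, and Acta2 and Gsn, which many cell types express, reached 38590 and 8164.

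Levels were first compared between chains, as scaled reads per kb of the longest coding transcript. Basement membrane collagens and a few fibrillar chains made up nearly all collagen RNA. In GFP the highest level was that of Col18a1, a basement membrane multiplexin whose C-terminal fragment is endostatin, at 13380 ± 2401 per kb (SD, n = 4). It was followed by Col4a1 at 4830 ± 589, Col5a2 at 3530 ± 955, Col3a1 at 3445 ± 1209 and Col4a2 at 2139 ± 206. The libraries of Col18a1 lay above those of each other member. The ranges of Col4a1 and Col4a2 did not meet in either group, whereas Col5a2 and Col3a1 overlapped in each and have no order between them. With the union of annotated exons as the length, the same 5 chains led, and Col4a2 stood above Col3a1.

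The next chains were Col25a1 at 590 ± 380 per kb, Col5a1 at 548 ± 270 and Col19a1 at 225 ± 71.9. The libraries of Col25a1 overlapped those of both others. This order depends on the length used. Per kb of the exon union, the GFP mean of Col5a1 (542) stood above that of Col25a1 (305), and that of Col6a1 (156) above that of Col19a1 (139). The GFP libraries overlapped in both cases. Before scaling by length, the leading 5 chains held 89.2 to 94.7% of all collagen reads in GFP and 86.7 to 92.9% in Cre. Col18a1 alone held 40.3 to 43.2% in GFP and 44.2 to 47.6% in Cre. Collagen genes together took 0.636% ± 0.123 of the scaled total in GFP and 0.625% ± 0.127 in Cre (SD, n = 4 each). The total did not differ beyond its spread, and the chains described below as higher in Cre, apart from Col25a1, were minor ones in GFP. Since the samples are bulk cultures, more cells of a type and more RNA per cell cannot be told apart for any chain.

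**Figure D1:**
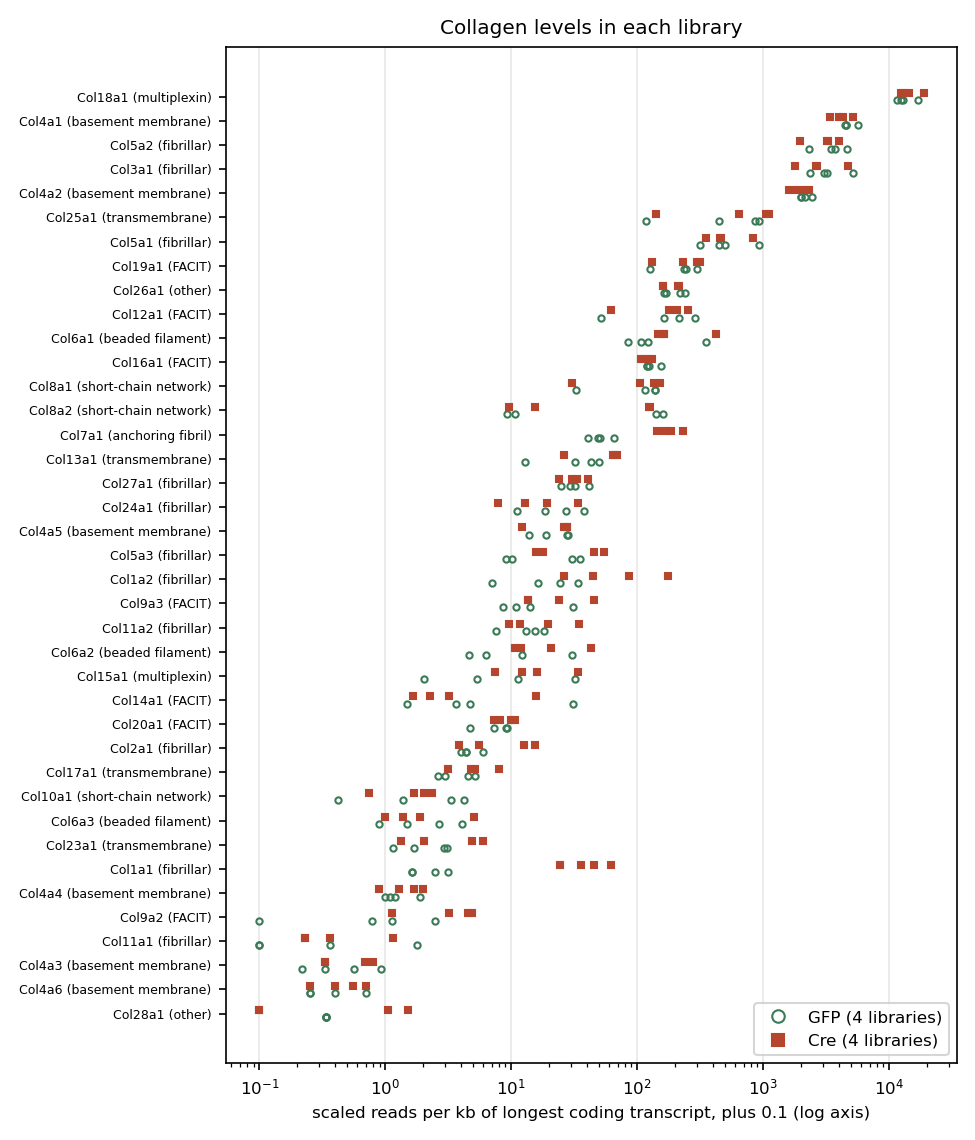
Level of each of the 39 collagen genes in each library, as scaled reads per kb of the longest coding transcript plus 0.1 on a log axis, ordered by the GFP mean; open circles are the 4 GFP libraries and squares the 4 Cre libraries. Col18a1, Col4a1, Col5a2, Col3a1 and Col4a2 lead in both groups, and the squares of Col1a1 and Col7a1 lie apart from their circles.

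At the low end, 12 members did not reach 1 CPM, a unit relative to the scaled total of a library, in at least 4 libraries and were not tested. They were Col2a1 and Col11a1 of cartilage fibrils, Col4a3, Col4a4 and Col4a6 of specialised basement membranes, Col9a2 and Col14a1 of the FACIT class, the transmembrane Col17a1 and Col23a1, and Col6a3, Col10a1 and Col28a1. Col14a1 reached 200 scaled reads in GFP 4 and 100 in Cre 4 and at most 30 elsewhere. Col2a1, the main chain of cartilage fibrils, was at 79 and 64 in Cre 2 and 3 and at 19 to 30 in the other 6 libraries. The other 10 stayed at or under 50 in each library. Col6a3, the third common chain of type VI collagen, was among them with 8 to 50 scaled reads, against 344 to 1725 for Col6a1.

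Between Cre and GFP, 2 collagen genes rose in the unpaired model and none fell. Type I collagen's alpha 1 chain, Col1a1, rose 18.2-fold on the log2(value + 1) scale from very low counts, and the anchoring fibril chain Col7a1 rose 3.54-fold from a moderate level. The unpaired model, limma with an intensity trend on log2(value + 1), called 2 of the 27 tested members higher and 0 lower (Benjamini-Hochberg adjusted p under 0.05 over 12910 genes). At an unadjusted p under 0.05 it had 3 higher and 0 lower, beside 956 higher and 1201 lower of all 12910 genes. Voom without pairing also called 2 higher and 0 lower. Of all genes tested, 0.837% were called higher and 0.248% lower. Col1a1 and Col7a1 were also the only members whose groups did not overlap, 2 higher and 0 lower, where 4.41% of all tested genes lay fully higher and 6.17% fully lower in Cre. The median log2 change of the 27 was 0.11, beside -0.00 over all genes. Of the 27, 18 had a change above 0, beside 6434 of all 12910 genes tested. Col1a1 reached 1 CPM in 4 Cre libraries and 0 GFP libraries, so it entered the test only through the group where it was high and is no support for these counts. Col15a1, with 4 Cre and 2 GFP libraries at 1 CPM, also needed Cre libraries to pass the filter. The same holds for Col6a2, Col9a3 and Col20a1, each with 4 Cre and 3 GFP libraries, and these members shift the counts upward.

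Libraries of equal number resembled each other across the groups, so a paired model, in which the number is a block, was fitted as well. It called 9 members higher and 4 lower and left 14 uncalled. Among the 9, Col1a1, Col15a1 and Col6a2 had passed the filter only with Cre libraries, where they were higher. Over all genes it called 22.2% higher and 21.7% lower, so a collagen gene called with pairing alone is 1 of many. The paired adjusted p is given below for each collagen gene whose call it changes, and for most other named genes.

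**Figure D2:**
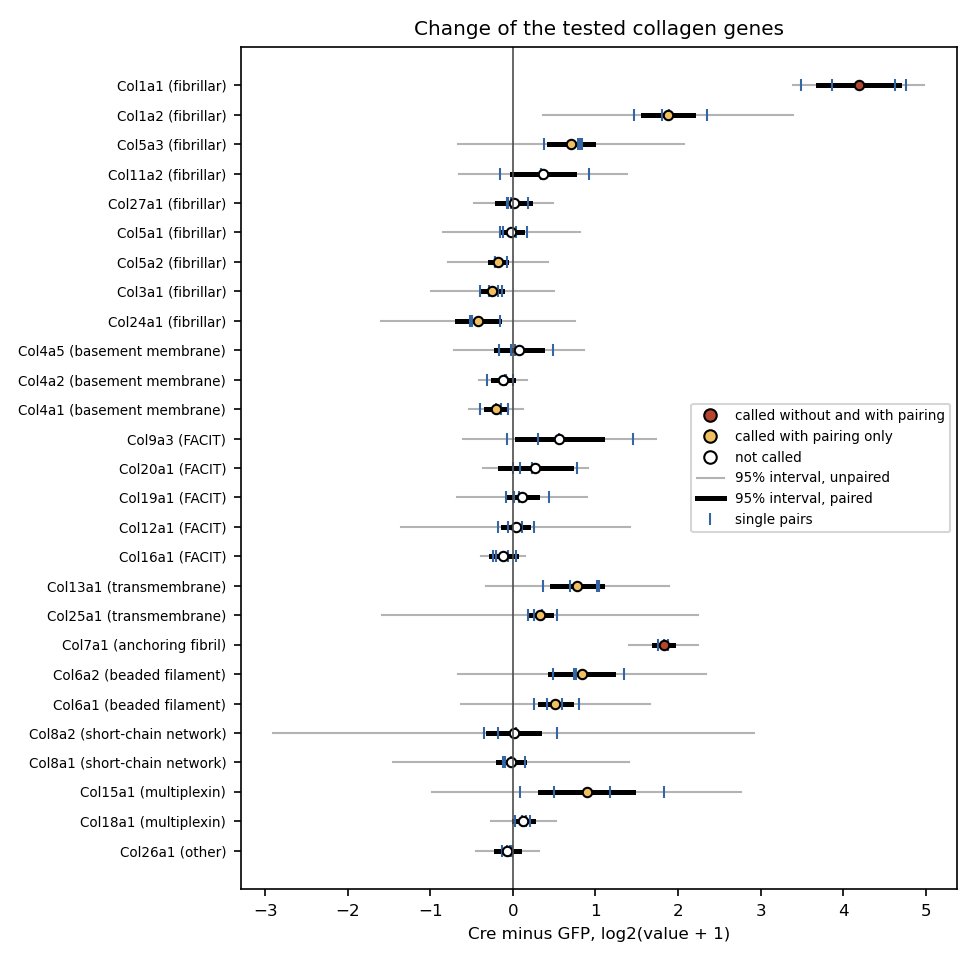
Change of the 27 tested collagen genes in Cre against GFP on the log2(value + 1) scale, grouped by class. Circles are means, thin and thick bars the 95% intervals of the unpaired and paired models, and ticks the 4 single pairs; Col1a1 at 4.19 and Col7a1 at 1.82 are the members called in both models.

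Promoter sequences are shown for 3 chains that behaved differently: Col7a1, which rose in both models, Col1a2, which rose with pairing, and Col3a1, an abundant chain that fell with pairing. They were taken from RefSeq windows on GRCm38.p6, which exist here for 31 of the 39 members (33 windows) and not for Col1a1. Capitals mark 3 motifs, searched on both strands: the CCAAT box, the TATA box written as TATAAA, and the GC box written as GGGCGG. The Col7a1 stretch is chr9:108953336-108953585, the Col1a2 stretch chr6:4505368-4505492, which stops where the table starts the gene, and the Col3a1 stretch chr1:45311288-45311537, all on the plus strand and upstream of exonic sequence.
Col7a1: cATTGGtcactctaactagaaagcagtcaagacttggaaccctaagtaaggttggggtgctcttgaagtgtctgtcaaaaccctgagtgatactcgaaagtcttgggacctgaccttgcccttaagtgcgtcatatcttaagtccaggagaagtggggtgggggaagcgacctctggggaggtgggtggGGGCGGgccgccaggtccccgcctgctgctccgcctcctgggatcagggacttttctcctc
Col1a2: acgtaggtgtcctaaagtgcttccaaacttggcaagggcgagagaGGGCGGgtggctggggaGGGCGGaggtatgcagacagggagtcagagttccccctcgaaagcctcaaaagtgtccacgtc
Col3a1: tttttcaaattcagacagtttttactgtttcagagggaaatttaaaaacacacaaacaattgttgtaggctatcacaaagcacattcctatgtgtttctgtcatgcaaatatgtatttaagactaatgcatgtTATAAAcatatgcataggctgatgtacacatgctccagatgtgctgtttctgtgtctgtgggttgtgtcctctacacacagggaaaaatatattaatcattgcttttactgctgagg
The Col7a1 stretch had 7 CpG and 56.4% G or C, with GGGCGG 61 bases and CCAAT on the minus strand 249 bases upstream of the RefSeq start. The Col1a2 stretch of 125 bases had 6 CpG, 59.2% G or C and 2 GGGCGG. Its window also held CCAAT on the plus strand, 109 bases upstream of the RefSeq start, in the part that is not printed. Over all 250 bases it had 11 CpG and 62% G or C. The Col3a1 stretch had 0 CpG and 35.2% G or C, with TATAAA 117 bases upstream and 4 matches to CANNTG (the E-box form, not capitalised), 1 of which begins where the TATAAA match ends. Of the 33 collagen windows, read over the 250 bases before the start, 33.3% held CCAAT, 15.2% TATAAA, 57.6% GGGCGG and 51.5% CANNTG. Of all 32851 windows of that length, the shares were 33.9, 12.4, 32.7 and 66.2%. These letter matches are descriptions of the windows and not binding sites.

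Among fibrillar chains, Col1a1 changed most. It encodes the chain that supplies most of the type I collagen helix, and occupies the plus strand of chromosome 11 from 94936224 to 94953042 in GRCm38 (ENSMUSG00000001506). Scaled reads were 144, 370, 271 and 213 for Cre 1 to 4, against 9, 14, 9 and 18 for GFP 1 to 4. Each Cre library exceeded each GFP library at least 8-fold. The Cre mean was 249.5 ± 95.6 and the GFP mean 12.5 ± 4.36 (SD, n = 4 each). The difference was 4.19 ± 0.35 on the log2 scale (SE; limma, adjusted p = 0.00412). By absolute size of log2 change it ranked 2 among all 12910 genes, although its level per kb in Cre was still rank 18 of the 39 collagens.

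Col1a2, the partner chain of type I collagen on chromosome 6 (4505493 to 4541544, plus strand, ENSMUSG00000029661), was at 461, 239, 140 and 930 scaled reads in Cre and at 131, 86, 37 and 182 in GFP. The groups overlapped, with Cre 3 below GFP 4, but each Cre library was above the GFP library of its number. The log2 change of 1.88 ± 0.66 (SE) did not pass in the unpaired model (limma, adjusted p = 0.218). Col1a2 rose in the paired model (SE 0.13, adjusted p = 7.6e-06). Both chains of type I collagen were thus higher in 4 of 4 pairs, by unequal amounts. Per kb, Col1a1 was at 0.0620 to 0.219 of the Col1a2 level in GFP and at 0.207 to 1.75 of it in Cre. In Cre libraries 2 and 3 the alpha 1 chain exceeded the alpha 2 chain, and in Cre 1 and 4 it did not. The size of this ratio depends on the length used. Per kb of the union of annotated exons, which is 12426 bases for Col1a2 against 5348 for its longest coding transcript, it was 0.130 to 0.461 in GFP and 0.434 to 3.67 in Cre, again above 1 in 2 Cre and 0 GFP libraries.

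Marker genes of several other cell types were also higher in Cre, beside type I collagen. Of the 8 measured markers of fibro-adipogenic cells and fibroblasts, 4 were tested, and Ly6a, the surface antigen Sca-1, rose from 60 to 144 scaled reads in GFP to 346 to 565 in Cre (log2 change 2.35, limma, adjusted p = 0.0164). Pdgfra, the receptor that defines fibro-adipogenic cells, was at 95 to 142 in Cre and 104 to 149 in GFP. The summed level of the list was 5180 to 9832 in Cre and 3370 to 6992 in GFP, mostly from Gsn. Of 11 measured pericyte and smooth muscle markers, 8 were tested, and Rgs5 rose from 6092 to 13761 in GFP to 23078 to 53834 in Cre (log2 change 2.08, adjusted p = 0.0277). That list summed to 65389 to 106423 in Cre and 29625 to 53049 in GFP, a gap that came mostly from Rgs5. Mcam and Notch3 of the list rose with pairing (1.20 and 1.00, unpaired limma, adjusted p = 0.118 and 0.278, paired 4.5e-07 and 6.4e-07). Its smooth muscle genes Acta2 and Tagln passed in neither model, with changes of 0.01 and 0.06, and Myh11 stayed at 2 to 9. Leaving out 1 library could end either marker call (highest adjusted p 0.0730 for Ly6a and 0.105 for Rgs5). The endothelial list (7 measured, 2 tested) summed to 287 to 428 in Cre and 147 to 191 in GFP, and Tek rose with pairing (1.46, unpaired limma, adjusted p = 0.175, paired 3.3e-05). The immune list (5 measured, 2 tested) summed to 183 to 488 in Cre and 98 to 342 in GFP, and Cd68 rose with pairing (1.00, unpaired limma, adjusted p = 0.535, paired 0.000369). The Schwann cell list (6 measured, 4 tested) summed to 841 to 1423 in Cre and 869 to 1303 in GFP, and Ngfr rose with pairing (1.13, unpaired limma, adjusted p = 0.318, paired 0.000140). The tenocyte and chondrocyte list (8 measured, 4 tested) summed to 2402 to 3473 in Cre and 2221 to 3386 in GFP, and Acan rose with pairing (0.42, unpaired limma, adjusted p = 0.809, paired 0.0150). With pairing, 3 of the 4 tested fibro-adipogenic markers and 5 of the 8 pericyte markers rose, and 0 fell in any of these 6 lists, where 22.2% of all genes rose and 21.7% fell. The muscle stem cell and myoblast list (12 measured, 11 tested) summed to 236591 to 273800 in Cre and 203541 to 242236 in GFP, ranges that overlapped. With pairing, 5 of its 11 tested members rose and 3 fell. The part of cells of other types in the collagen results was not tested.

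**Figure D3:**
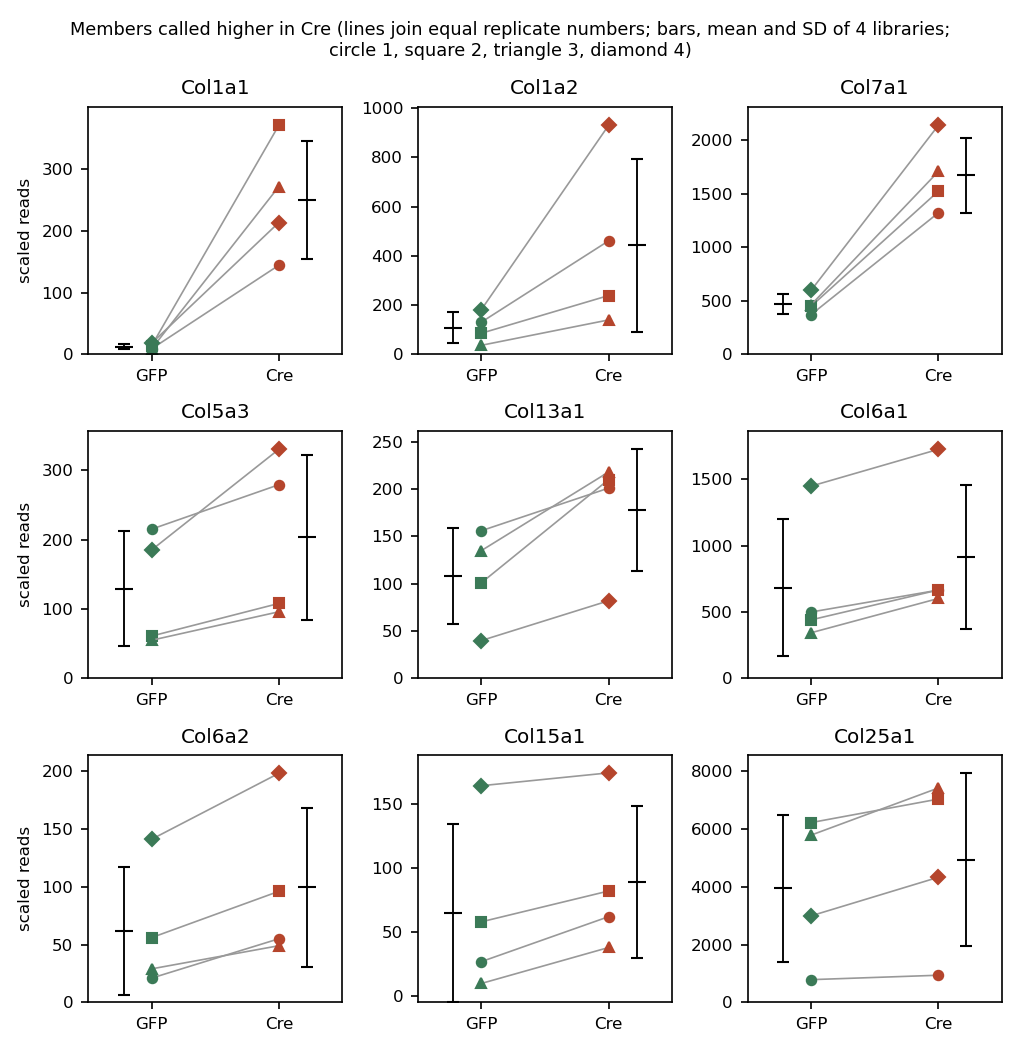
Scaled reads of the 9 collagen genes called higher in Cre in the paired model, in GFP and Cre libraries, on linear axes. Lines join libraries of equal number, and bars are the mean ± SD of 4 libraries; each line slopes upward, and the groups stand clear of each other for Col1a1 and Col7a1 alone.

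The abundant fibrillar chains Col3a1 and Col5a2 had small changes and fell with pairing. Col3a1, the homotrimeric chain of type III collagen, was at 14621, 14896, 9929 and 26358 scaled reads in Cre and at 17913, 16914, 13081 and 28764 in GFP. Its log2 change was -0.25 ± 0.32 (SE; limma, adjusted p = 0.762), and it fell in the paired model (adjusted p = 0.00278). Col5a2, a chain of the type V collagen that nucleates fibrils, was at 13017, 21833, 21459 and 26268 in Cre and at 15180, 23023, 24854 and 30492 in GFP. Its change was -0.18 ± 0.26 (adjusted p = 0.794), and it fell in the paired model (adjusted p = 0.00775). For both chains each Cre library was below its GFP partner, while libraries of different numbers were intermixed. Col3a1 (45311538 to 45349706, plus strand) and Col5a2 (45374321 to 45503282, minus strand) lie next to each other on chromosome 1 with 24614 bases between their ends.

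The 3 chains of type V collagen had different calls with pairing, and the differences between them were not tested. Col5a1, the chain common to most type V helices, was at 2957, 3864, 3849 and 7025 scaled reads in Cre and at 2628, 3763, 4172 and 7860 in GFP. It passed in neither model, with a log2 change of -0.02 (95% interval -0.85 to 0.81). Col5a3, the least common chain, was at 279, 108, 96 and 330 in Cre and at 215, 61, 55 and 185 in GFP. Its change of 0.70 ± 0.59 (SE) missed the unpaired threshold (limma, adjusted p = 0.608), and it rose in the paired model (adjusted p = 0.000899), higher in 4 of 4 pairs. Col24a1, a fibrillar chain of developing bone, was at 55, 91, 136 and 241 in Cre and at 78, 131, 194 and 269 in GFP, a change of -0.42 ± 0.51 (adjusted p = 0.742). It fell in the paired model (adjusted p = 0.0129), a call lost without pair 3 (adjusted p = 0.0579). Col11a2 and Col27a1 passed in neither model, with changes of 0.36 (95% interval -0.66 to 1.38) and 0.01 (-0.47 to 0.49).

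The ratios between chains of types III and I were lower in each Cre library than in any GFP library. Per kb, Col3a1 exceeded Col1a1 by 1288 to 2121 times in GFP and by 39.0 to 132 times in Cre, and it exceeded Col1a2 by 131 to 340 times in GFP and by 27.2 to 68.2 times in Cre. These ratios are a description, since they restate the rise of both type I chains, they were computed after the values had been seen, and Col1a1 passed the filter only through Cre. The ratio of Col1a1 to Col1a2 was higher in Cre in 4 of 4 pairs. Adjusted over the 6 chain ratios compared, its p was 0.114 (exact permutation test over 8 libraries without pairing, two-sided). The smallest adjusted p in that test was 0.0857, for Col3a1 over Col1a1 and for Col3a1 over Col1a2. Before adjustment both had 0.0286, the smallest p possible with 8 libraries, so the test could not have given them less. The length shifts a ratio by the same factor in each library and leaves that test as it is. Per kb of the exon union, Col3a1 exceeded Col1a1 by 808 to 1331 times in GFP and by 24.5 to 82.7 times in Cre.

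Col7a1 was the member with the most even change. It encodes the single chain of type VII collagen, known from skin where its loss causes blistering, and occupies the plus strand of chromosome 9 from 108953586 to 108984875 in GRCm38 (ENSMUSG00000025650). Scaled reads were 1322, 1524, 1708 and 2139 for Cre 1 to 4, against 372, 450, 464 and 599 for GFP 1 to 4. The lowest Cre library was more than 2-fold above the highest GFP library. The Cre mean was 1673 ± 348 and the GFP mean 471 ± 94.3 (SD, n = 4 each). The difference was 1.82 ± 0.18 on the log2 scale (SE; limma, adjusted p = 0.00804). The single pairs changed by 1.83, 1.76, 1.88 and 1.83, an SD of 0.05. By paired p it ranked 2 of all 12910 genes, and its level per kb moved from rank 15 of 39 in GFP to rank 11 in Cre. The nearest tested genes on either side were Uqcrc1 and Pfkfb4, with log2 changes of -0.09 and 0.07 (adjusted p = 0.598 and 0.832, limma).

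In the basement membrane class, the abundant type IV chains were at slightly lower means in Cre, and 0 passed in unpaired limma (0 at an unadjusted p under 0.05). Col4a1, of the common type IV helix, was at 26278, 28694, 22630 and 34080 scaled reads in Cre and at 30250, 30011, 29750 and 37785 in GFP. Its change was -0.20 ± 0.14 (SE; limma, adjusted p = 0.521), and it fell in the paired model (adjusted p = 0.0145), a call lost without pair 3 (adjusted p = 0.0572). Col4a2, its partner in that helix, was at 12047, 13873, 10321 and 14778 in Cre and at 12850, 13837, 12831 and 15660 in GFP. Its change of -0.12 (95% interval -0.41 to 0.17) passed in neither model (paired adjusted p = 0.0876). The genes lie head to head on chromosome 8, Col4a1 on the minus strand (11198423 to 11312826) and Col4a2 on the plus strand (11312805 to 11449287), and their annotated spans overlap by 22 bases. Per kb, Col4a1 stayed at 2.02 to 2.25 times Col4a2 in Cre and 2.12 to 2.35 times in GFP. That ratio was lower in Cre in 4 of 4 pairs (exact permutation test without pairing, unadjusted p = 0.171, two-sided). Col4a5, the X-linked type IV chain known from the kidney filter, passed in neither model (log2 change 0.08, 95% interval -0.71 to 0.86).

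**Figure D4:**
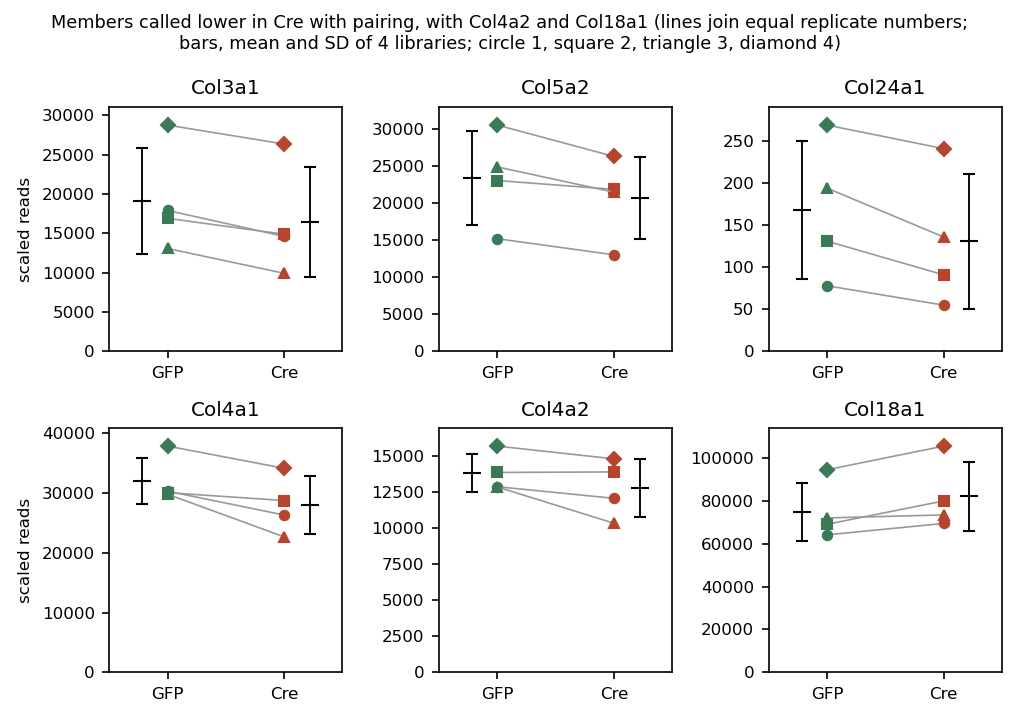
Scaled reads of the 4 collagen genes called lower in Cre in the paired model, with Col4a2 and Col18a1 for comparison, on linear axes that start at 0. Lines join libraries of equal number, and bars are the mean ± SD of 4 libraries; the drops within pairs are small beside the spread between numbers.

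The multiplexins share the basement membrane zone with type IV collagen. Col18a1 was at 69395, 79865, 73357 and 105402 scaled reads in Cre and at 64072, 69008, 71945 and 94409 in GFP, higher in 4 of 4 pairs with groups that overlapped. Its log2 change of 0.13 (95% interval -0.27 to 0.52) passed in neither model (paired limma, adjusted p = 0.0778). Col15a1, its close relative, was far scarcer, at 62, 82, 38 and 174 in Cre and at 27, 58, 10 and 164 in GFP. Its change of 0.89 ± 0.82 (SE) missed the unpaired threshold (adjusted p = 0.643), and it rose in the paired model (adjusted p = 0.0160). It reached 1 CPM in 4 Cre and 2 GFP libraries, so it passed the filter only with Cre libraries, where it was higher. The paired call was lost with voom and without pair 3 (adjusted p up to 0.0753).

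Type VI collagen, a beaded microfibril around muscle fibres, had 2 tested chains, and both rose with pairing. Col6a1 was at 665, 666, 602 and 1725 scaled reads in Cre and at 500, 441, 344 and 1448 in GFP (log2 change 0.52 ± 0.50, SE; limma, adjusted p = 0.665, paired 0.000807). Col6a2 was at 55, 96, 49 and 198 in Cre and at 21, 56, 29 and 141 in GFP (0.83 ± 0.65, adjusted p = 0.574, paired 0.00294). Col6a2 reached 1 CPM in 4 Cre and 3 GFP libraries, so it passed the filter only with Cre libraries. Library 4 was the highest for both chains in either group, and all 4 pairs went up. Both genes lie on the minus strand of chromosome 10, Col6a2 at 76595762 to 76623630 and Col6a1 at 76708792 to 76726168. Per kb, Col6a1 exceeded Col6a2 by 7.87 to 13.9 times in Cre and 8.94 to 27.0 times in GFP, or by 13.2 to 23.4 and 14.97 to 45.3 times per kb of the exon union.

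The transmembrane class had 2 tested members, and both rose with pairing. Col13a1, a membrane collagen of muscle attachment sites and the neuromuscular junction, was at 201, 210, 218 and 82 scaled reads in Cre and at 156, 101, 135 and 40 in GFP (log2 change 0.78 ± 0.48, SE; limma, adjusted p = 0.461, paired 0.00117). Col25a1, a membrane collagen needed for motor innervation of muscle, was at 941, 7039, 7423 and 4332 in Cre and at 788, 6225, 5792 and 2997 in GFP (0.33 ± 0.84, adjusted p = 0.893, paired 0.00103). For Col25a1 the difference between replicate numbers was much larger than that between groups. Col25a1 overlaps 3 predicted genes on its own strand in the table, so part of its reads may be assigned elsewhere.

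Of the 5 tested FACIT chains 0 passed in either limma model, and 0 had an unadjusted p under 0.05 without pairing. Col12a1, the most abundant before length scaling, differed by 0.03 (95% interval -1.35 to 1.42), and Col16a1, the most even, by -0.12 (-0.38 to 0.15). Col19a1, Col20a1 and Col9a3 differed by 0.11, 0.27 and 0.56, with unpaired intervals that held 0. Col9a3 overlaps Tcfl5 on the opposite strand, and whether counting used strand is not given in the sources used here, so its reads cannot be fully assigned. The short-chain network genes Col8a1 and Col8a2 differed by -0.02 and 0.01, and Col26a1 by -0.07, and these 3 passed in neither model. The paired intervals of FACIT chains were narrower, at -0.12 to 0.18 for Col12a1. That of Col9a3 was 0.050 to 1.076 and did not hold 0, while its adjusted p missed the threshold (paired limma, adjusted p = 0.0719).

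Most members had a range between replicate numbers that was wider than their mean difference between Cre and GFP. Of the 27 tested, 25 had a range between the 4 numbers, taken as the mean of Cre and GFP on the log2 scale, above the size of their mean pair difference, the exceptions being Col1a1 and Col7a1. The median range was 1.41 and the median size of the pair difference 0.25. A range over 4 numbers and a mean difference are unlike measures, and the same share over all genes was not computed. The count therefore describes these members and is not a trait particular to collagen genes. The widest was Col8a2, a chain known from the Descemet membrane of the cornea, at 41, 537, 542 and 67 scaled reads in Cre and at 40, 608, 689 and 46 in GFP. Its numbers 2 and 3 were high and 1 and 4 low in both groups alike. Col15a1 spanned 3.04 log2 units between numbers, Col25a1 2.94 and Col12a1 2.26, against 0.31 for Col16a1 and 0.40 for Col4a2.

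**Figure D5:**
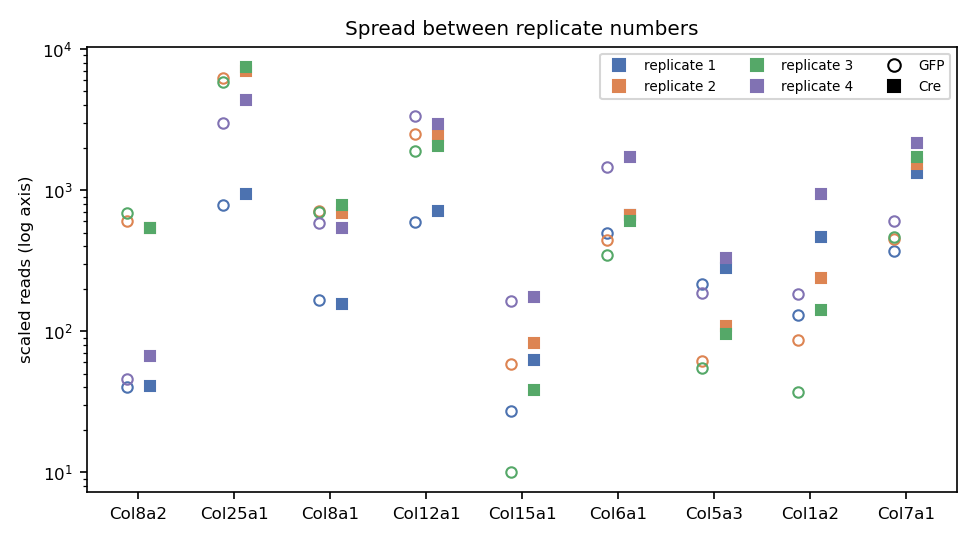
Scaled reads on a log axis for 9 collagen genes, with colour for the replicate number, open circles for GFP and squares for Cre. Col8a2 and Col25a1 separate by number in both groups alike, while Col7a1 separates by group.

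Genes that make, secrete, process and bind collagen formed a list of 98, of which 84 were tested. In the unpaired model 2 rose and 0 fell, where 0.837% of all genes rose and 0.248% fell. With pairing 30 rose and 15 fell, where 22.2% of all genes rose and 21.7% fell, and the counts of the smaller lists below stand against the same shares. Their median log2 change was 0.08. Those that rose unpaired were Sec23a, a COPII coat subunit needed for procollagen export (3506 ± 181 in GFP, 4902 ± 170 in Cre, log2 change 0.48, limma, adjusted p = 0.0185), and Emilin1, an elastic fibre glycoprotein (0.54, adjusted p = 0.0348). Emilin1 lost its call without any single library and Sec23a without 6 of the 8.

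Among the 14 genes of prolyl and lysyl hydroxylation, 6 rose and 3 fell with pairing (all genes 22.2 and 21.7%). In unpaired limma 0 passed. At an unadjusted p under 0.05 there were 2 higher and 1 lower, beside 956 higher and 1201 lower of all 12910 genes. Crtap, of the prolyl 3-hydroxylase complex, differed by -0.48 (limma, adjusted p = 0.0881, paired 0.000105) and P4ha2, a prolyl 4-hydroxylase subunit, by 0.26 (0.131, paired 0.00198). Of 12 folding and export genes, 3 rose and 1 fell with pairing. Of 5 procollagen processing genes tested, Bmp1, the C-proteinase, differed by 0.26 (0.199, paired 0.000587), and the N-proteinases Adamts14 and Adamts2 by -0.70 and -0.99 (0.206 and 0.565, paired 8.2e-06 and 0.000455). With pairing, Bmp1 thus rose and Adamts14 and Adamts2 fell. Adamts3, a further N-proteinase, and the Bmp1 relatives Tll1 and Tll2 were not tested.

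Of the 5 lysyl oxidases, which crosslink fibrils, Loxl4 and Loxl2 rose with pairing, at 1.28 and 0.73 (unpaired limma, adjusted p = 0.104 and 0.628, paired 0.000184 and 0.000220). Lox differed by -0.28 and passed in neither model. Of 10 tested genes of collagen breakdown and uptake, 4 rose and 1 fell with pairing (all genes 22.2 and 21.7%). The collagenase Mmp13 and the inhibitor Timp3 rose, at 1.63 and 0.89, and the inhibitor Timp1 fell, at -0.69 (unpaired limma, adjusted p = 0.316, 0.207 and 0.328, paired 0.000128, 0.000408 and 8.5e-05). Of 8 tested receptors, 3 rose and 1 fell with pairing, Itga1 among the former at 0.71, a call lost without pair 3 (limma, adjusted p = 0.0543). Mmp13 and Itga1 were as low as 12 and 22 scaled reads in GFP, under 1 CPM, and passed the filter only with Cre libraries. Of 23 genes of TGF-beta signalling and collagen transcription, 7 rose and 5 fell with pairing, near the shares of all genes (22.2 and 21.7%). Nfya, a subunit of the factor that binds CCAAT, differed by -0.36 (limma, adjusted p = 0.0650, paired 0.000157), and Smad2 and Tgfbr1 by -0.20 and 0.22.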

How the data were processed

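RNA was measured in 8 libraries, 4 Cre and 4 GFP, grouped and numbered by sample title. Per the submitters' processing notes, the tools were STAR 2.5.3a, featureCounts 1.5.3 and DESeq, and the builds mm10 or GRCm38. Per the labels' protocols, the libraries were stranded. Whether counting used strand, and which filters and annotation applied, is not given in the sources used here. The unit was recorded as a score, because the authors deposited whole numbers that had been normalised between libraries and rounded, and not raw counts. The estimated value of 1 read in a library lay between 0.741 and 1.20, so counting error is small for abundant chains and large near 10 reads. Replicates of a group differed beyond sampling noise (chi-square per degree of freedom 20.2 to 143).

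Limma 3.58.1 in R 4.3.3 was fitted with an intensity trend to log2(value + 1) of the 12910 genes with at least 1 CPM in 4 libraries, and p-values were adjusted over them by the Benjamini-Hochberg method (threshold 0.05). The pseudocount of 1 understates changes of low genes. The tests were also run on simulated counts with pairs built in and 1 setting of spread for all genes. That run therefore says nothing on how the calls hold under the spread of these data. Pairing comes from the values alone: after subtracting group means, a Cre and a GFP library of equal number correlated over genes with r from 0.820 to 0.908, and those of unequal number with r from -0.597 to 0.477. The labels do not say that a number is a mouse. Alternatives were other pseudocounts, filters, rescalings (a trimmed mean of M-values, TMM, and the upper quartile) and voom, and leaving out each library or pair.

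Named genes were Chd4, every collagen, up to 3 genes of each collagen-related list with the smallest p, and called list members. Members and lists were chosen with earlier results of these data known. Ccn2 and Mia2 stand in the table as Ctgf and Ctage5. Lengths are from GENCODE M21. The union of annotated exons was used first, and the longest coding transcript was chosen after those ratios had been seen. The 6 chain-ratio tests, the neighbours of Col7a1 and the spread between replicate numbers were also added after values were seen. Tables and figures were made with Python 3.11.15, pandas 2.3.3 and matplotlib 3.10.9.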

Additional observations from a re-analysis of the deposited data

Results flagged for a closer look

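Within the 4 libraries of a group, a sample was singled out when its gap to the nearest of the others relative to the range of the group exceeded Dixon's 95% critical value. This was examined for the 27 tested collagen genes in 54 groups, and 6 were singled out. Chance flags about 1 in 20 groups. Col6a1 stood far above the rest in the fourth library of both groups, at 1725 scaled reads in Cre (the others at 602 to 666) and 1448 in GFP (the others at 344 to 500). Col4a1 was high in GFP 4, at 37785 against 29750 to 30250. Col16a1 was high in GFP 3, at 810 against 617 to 645. Col13a1 was low in Cre 4, at 82 against 201 to 218, and Col4a5 was low in Cre 3, at 79 against 172 to 182. Of these 6, 4 lie in libraries with the number 4.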

How the results depend on the processing

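Without the block, 2 collagen genes were higher and 0 lower in each of the 15 alternatives, and Col1a1 and Col7a1 kept their calls in all of them (adjusted p up to 0.0280 and 0.0448). With the replicate block, the same tests called 9 collagen genes higher and 4 lower, 30 collagen-related genes higher and 15 lower, and 2861 of all genes higher and 2804 lower. Over the paired alternatives, 7 to 11 collagen genes were higher and 3 to 4 lower. A filter of 5 CPM left 58 of all genes higher. Leaving out single libraries left 10 to 58 genes higher and 1 to 7 lower, and 0 to 1 collagen-related genes higher. Such fits have fewer samples and break a pair.

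Leaving out single libraries turned the direction of 10 collagen genes and of Lox, and the cause was not tested. The unpaired log2 change then ranged from -0.48 to 0.48 for Col12a1, -0.15 to 0.38 for Col19a1, -0.32 to 1.00 for Col25a1, -0.15 to 0.031 for Col26a1, -0.12 to 0.14 for Col27a1, -0.13 to 0.37 for Col4a5, -0.27 to 0.28 for Col5a1, -0.37 to 0.025 for Col5a2, -0.52 to 0.50 for Col8a1, -0.67 to 0.69 for Col8a2 and -1.02 to 0.25 for Lox. Leaving out single pairs gave -0.042 to 0.11 for Col12a1, -0.052 to 0.035 for Col27a1, -0.057 to 0.16 for Col4a5, -0.080 to 0.031 for Col5a1, -0.081 to 0.0071 for Col8a1 and -0.16 to 0.13 for Col8a2. Paired voom gave -0.0031 for Col12a1 and -0.19 for Col8a2. Of genes uncalled in the paired model, Col18a1, Col9a3 and Lox were called with voom and the block (limma, adjusted p = 0.0306, 0.0472 and 0.00373), and leaving out 1 pair called Col18a1 (pair 3, 0.0495), Col9a3 (pair 1, 0.0190), Col11a2 (pair 4, 0.0404), Lox (pair 4, 0.000518) and the receptor gene Adgrg6 (pair 1, 0.00610). Rescaling by TMM moved the median change of all genes by 0.00457. Depth limits Col1a1 in GFP, where it had 9 to 18 scaled reads, and the 12 chains that were not tested.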

Other observations

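Of the 27 tested collagen genes, 7 had libraries of numbers 1 and 4 fully apart from those of numbers 2 and 3, Cre and GFP together. Col8a2, Col25a1, Col8a1, Col11a2, Col20a1 and Col26a1 were higher in numbers 2 and 3, and Col5a3 was higher in numbers 1 and 4, at 185 to 330 against 55 to 108 scaled reads. Over all tested genes, 15.3% separated this way in either direction. The same numbers differ in sex-linked RNA: Xist stood at 40670 to 49984 in numbers 1 and 4 and at 2 to 12 in numbers 2 and 3, and Ddx3y at 0 to 4 and 3141 to 3823. The labels give no sex, each set holds 2 numbers, and the part of sex or mouse in the collagen levels was not tested.

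Among 94 distinct tested neighbours of the 27 genes, up to 2 on each side and not collagens themselves, 2 were called higher and 0 lower in the unpaired model, where 0.837% of all genes were higher. They were Olfm2, beside Col5a3 (log2 change 1.57, limma, adjusted p = 0.0186), and Gulp1, beside Col3a1 (1.99, adjusted p = 0.0410), and both were singled out after their values were seen. The nearest tested neighbours of Col1a1, Xylt2 and Sgca, changed by 0.16 and 0.32 (adjusted p = 0.488 and 0.122).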
